A study of Mus musculus with 19 samples.

Results

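Motile cilia genes were examined in bulk RNA-seq of the mouse prelimbic cortex, a medial part of the prefrontal cortex. The 68 genes were taken by symbol from the 20938 genes of the count table: axonemal dynein heavy chains (Dnah), dynein intermediate chains (Dnaic), cilia and flagella associated proteins (Cfap), radial spoke heads (Rsph), tektins (Tekt), dynein regulatory complex subunits (Drc), Foxj1, Hydin, Spag6 and Spag17, each with a count above 0 in at least 4 libraries. All 68 genes with these names met that minimum. Tekt3 lay just inside it, with counts of 8, 3, 9 and 4 in 4 libraries, and no gene lay just outside. A filter on low counts left 65 genes to test, and Cfap73, Cfap97d1 and Tekt3 were not tested.

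The 19 libraries came from 4 groups of mice, with 1 library for each mouse that the design counts. Control mice (n = 6) received saline, and SCZ mice (n = 4) received 0.2 mg/kg MK-801, an NMDA receptor blocker used to model schizophrenia, intraperitoneally each day over 2 weeks. Control+c-MSST mice (n = 5) received saline and SCZ+c-MSST mice (n = 4) received MK-801, each together with c-MSST. In c-MSST, ferumoxytol iron oxide nanoparticles were injected once by stereotactic surgery into the left prelimbic cortex, and a pulsed magnetic field was applied to the freely moving animal. Tissue of the left prelimbic cortex was taken on day 3 after surgery. The labels give that day for all 4 groups but do not say whether mice without c-MSST were operated on. They also give no strain, sex, age or batch, so surgery, particles and field cannot be told apart here.

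Motile cilia beat by means of an axoneme of outer microtubule doublets around a central pair. Outer and inner dynein arms slide the doublets past each other, radial spokes and the central apparatus regulate the arms, and the nexin-dynein regulatory complex links neighbouring doublets. In the brain, tufts of motile cilia stand on the ependyma, the epithelium that lines the ventricles, and the choroid plexus epithelium also bears cilia. Foxj1 is the forkhead transcription factor that switches on the motile cilia programme, together with factors of the RFX family. Several genes with Cfap symbols are also used outside motile cilia, and prelimbic cortex itself holds no ventricle wall.

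The promoters of these genes were read for the letters of both factor families, since the results concern genes that vary together with Foxj1. RefSeq promoters (GRCm38.p6, 250 bases before to 50 bases after the start) were found for 57 of the 68 genes, in 64 promoters. Foxj1 was not among them. The 6 windows that follow show the motif in capitals with 14 bases on each side, 5′ to 3′ on the strand of the gene. They were chosen after the values were seen. Dnah12 and Spag17, with a Spearman rho with Foxj1 of 0.893 and 0.623, carry a forkhead motif (ATAAACA, here read on the other strand). Forkhead motifs that are not printed lay in Cfap43 (rho 0.602), Cfap20 (-0.091), Dnah17 (-0.546) and Tekt3 (not tested), so the motif was not limited to genes that followed Foxj1. Dnah7a, Dnah7b and Dnah7c are close copies with rho of 0.533, 0.495 and -0.398. Cfap58 is a gene that did not follow Foxj1 (-0.410).
Dnah12, chr14:26691512-26691546, + strand: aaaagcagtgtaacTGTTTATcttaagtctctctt
Spag17, chr3:99885173-99885207, + strand: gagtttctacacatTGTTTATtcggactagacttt
Dnah7a, chr1:53706965-53706998, - strand: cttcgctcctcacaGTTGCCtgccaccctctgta
Dnah7b, chr1:46066676-46066709, + strand: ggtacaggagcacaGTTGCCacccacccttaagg
Dnah7c, chr1:46425285-46425318, + strand: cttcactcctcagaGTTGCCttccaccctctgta
Cfap58, chr19:47937639-47937672, + strand: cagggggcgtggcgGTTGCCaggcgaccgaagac
The core RFX motif GTTGCC, read on both strands, was present in 24 of the 64 promoters (37.5%), against 4111 of 32851 promoters of all genes (12.5%). A forkhead motif, GTAAACA or ATAAACA on either strand, was present in 6 of the 64 (9.38%), against 7.97% of all promoters. Among the 22 promoters of members whose level had a Spearman rho of at least 0.5 with Foxj1, 7 held the RFX motif (31.8%) and 3 held a forkhead motif (13.6%). In the Dnah12 promoter the forkhead letters lay 28 bases before the start, in Spag17 230 bases before it. These are matches of letters and not measured binding. The RFX motif is only 6 bases long.

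Levels are given as CPM, a gene's count per 1000000 counts of its library. They span a wide range. Of the 68 genes, 19 had a mean of at least 10 CPM and 14 a mean below 1 CPM. On the authors' deposited FPKM values, which are per length of transcript, the highest means were those of Cfap36 (26.2 FPKM), which binds the small GTPase Arl3, Cfap97 (17.9) and the central apparatus gene Cfap74 (17.0). Foxj1 stood at 0.472 FPKM, Dnah6 at 0.280, Dnah11 at 0.137 and Dnah12 at 0.104. The length implied by CPM and FPKM differed from the annotated exon length by up to several fold (for Foxj1 by a ratio of 3.96, for Cfap74 by 0.166), so the order of genes per length is uncertain. Summed over all 68 genes, the median library held 572 CPM in Control, 499 in Control+c-MSST, 571 in SCZ and 500 in SCZ+c-MSST.

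**Figure D1:**
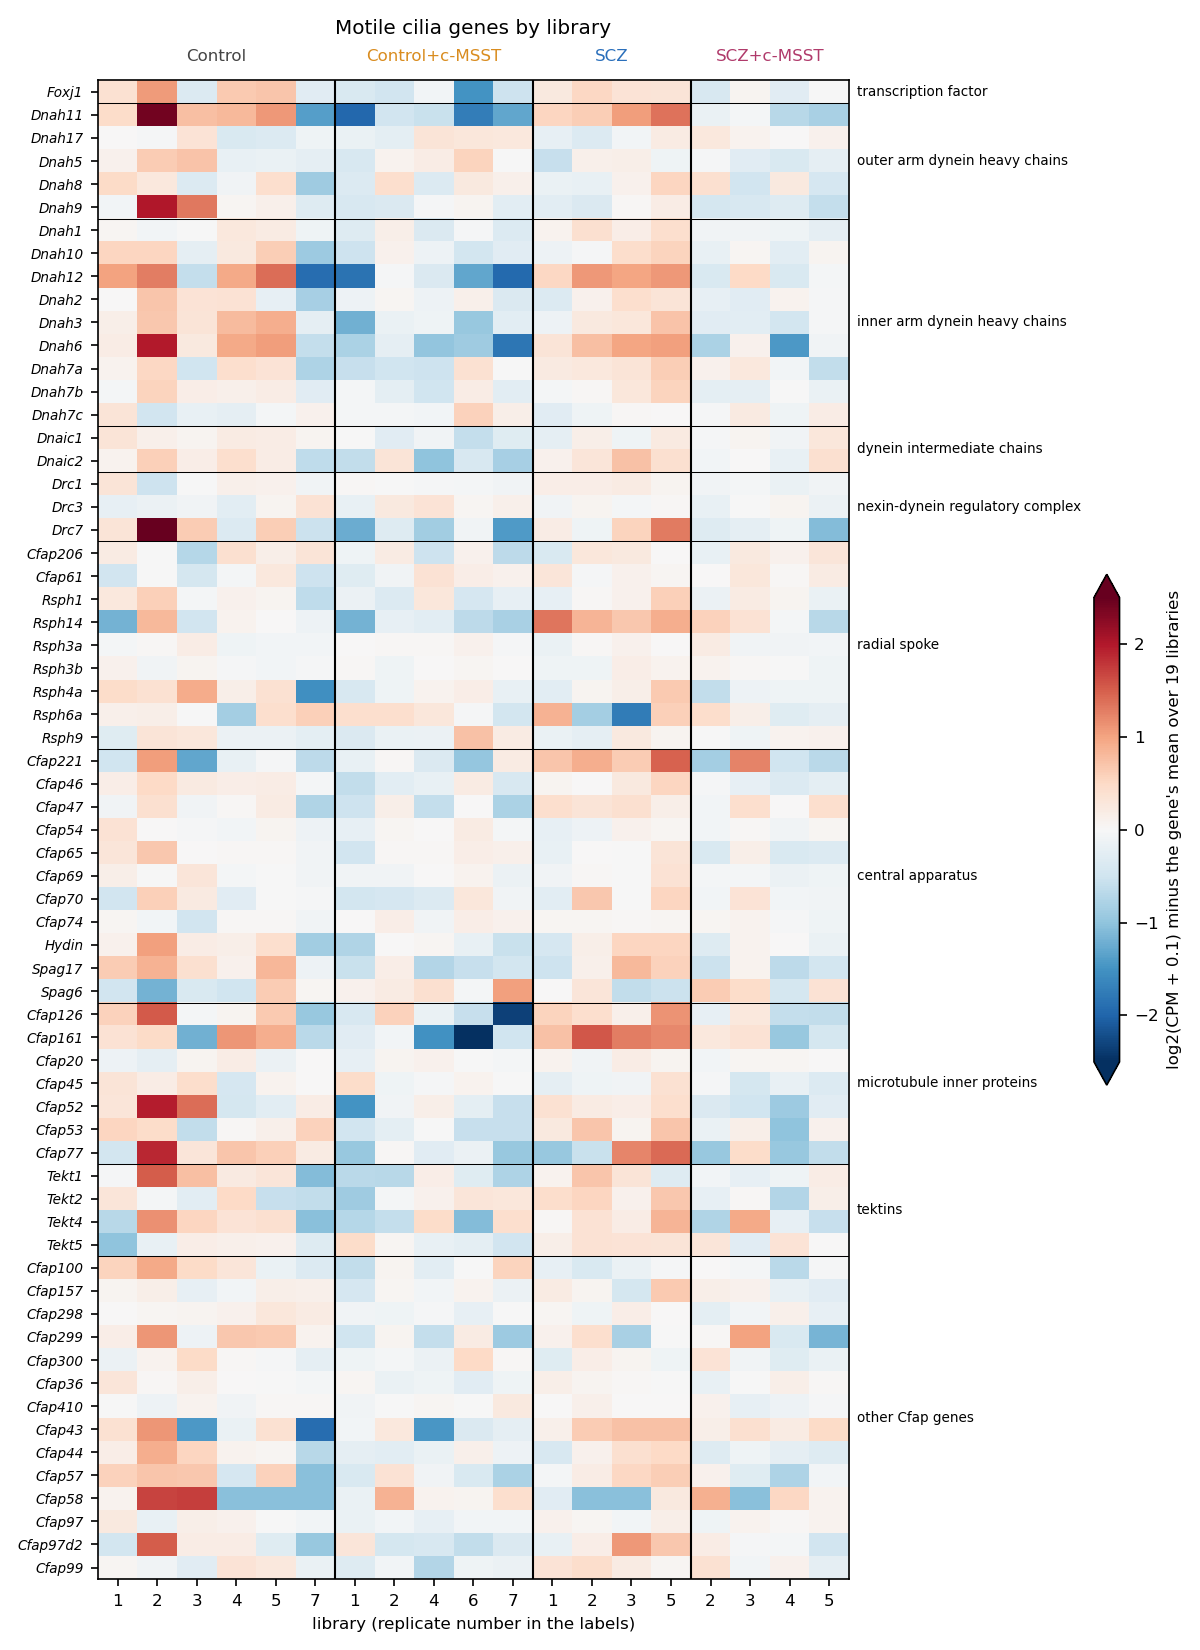
Level of the 65 tested motile cilia genes in the 19 libraries, as log2(CPM + 0.1) minus the mean of the gene, with genes ordered by role and libraries by group. The scale is the difference from each gene's own mean, so it shows variation and not abundance. Dnah11, Dnah6 and Dnah12 are mostly above their mean in Control and SCZ and mostly below it in both c-MSST groups, while Cfap20, Rsph3a and Rsph3b vary little.

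Total counts per library ran from 50140626 to 82416746, so a gene with 0 counts could hold up to 3 counts, or 0.0364 to 0.0598 CPM (counting error only). The tissue label fits the cortical excitatory neuron markers, of which Slc17a7 alone averaged 1051 ± 97.95 CPM (SD, n = 6) in Control. Markers of neighbouring regions were also present and uneven. Summed over 12 genes, striatal markers ranged from 426 to 3689 CPM between libraries. Choroid plexus markers, 14 genes including Ttr, summed to 1942 CPM in Control replicate 2 and 208 in Control replicate 3, and to between 13.1 and 43.9 in the other 17 libraries. Testis germ cell markers, which could have marked a sperm source of the same genes, did not exceed 0.292 CPM in sum. In bulk tissue, fewer cells of a type and less RNA per cell cannot be told apart.

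The first question was whether c-MSST went with another level of the motile cilia programme. Foxj1 (chromosome 11, 116330704 to 116335399, minus strand, GRCm38) ranged from 3.56 to 9.58 CPM in Control, with a median of 6.58. In Control+c-MSST its 5 values were 3.47, 3.23, 4.32, 1.55 and 3.16 CPM. In SCZ they were 5.37, 6.52, 5.82 and 5.73 CPM, and in SCZ+c-MSST 3.44, 4.78, 3.74 and 4.53 CPM. The 2 MK-801 groups did not overlap, whereas Control replicates 3 and 7 (3.56 and 3.70 CPM) lay within the range of Control+c-MSST. The log2 fold change was -0.96 (SE 0.25, adjusted p = 0.0832) for Control+c-MSST against Control, a level 0.513 times that of Control. For SCZ+c-MSST against SCZ it was -0.47 (SE 0.29, adjusted p = 0.751). Averaged over saline and MK-801 it was -0.72 (SE 0.19, adjusted p = 0.102). None of these passed an adjusted p of 0.05 in edgeR's quasi-likelihood test, with Benjamini-Hochberg adjustment over 16417 genes, which is the test behind every adjusted p given here unless another is named.

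**Figure D2:**
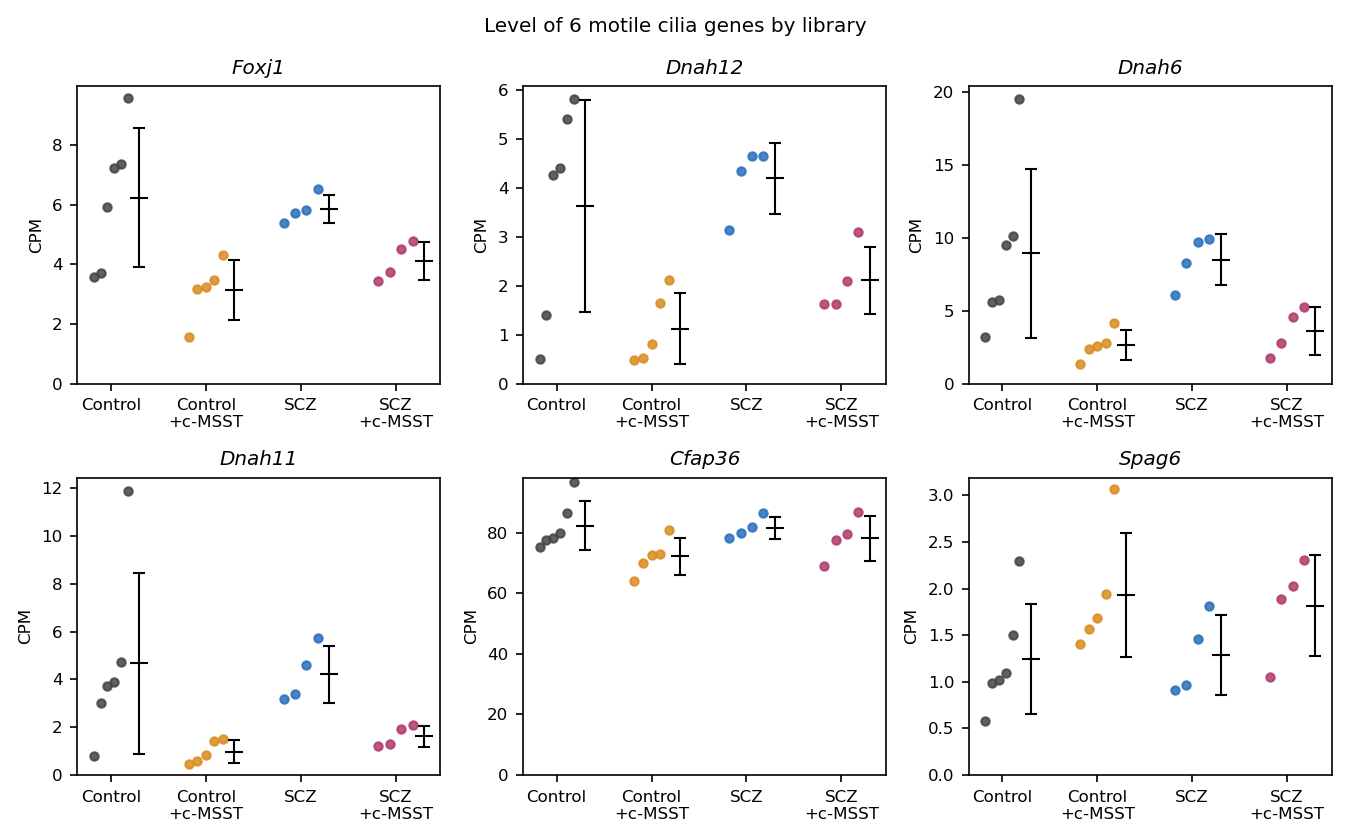
CPM of Foxj1, Dnah12, Dnah6, Dnah11, Cfap36 and Spag6 in each library, by group, with the mean and SD. The means of Foxj1 are 6.23, 3.14, 5.86 and 4.12 CPM in Control, Control+c-MSST, SCZ and SCZ+c-MSST, those of Spag6 are in the opposite order between libraries with and without c-MSST, and Cfap36 stays between 64.2 and 96.6 CPM.

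Among the inner arm dynein heavy chains, 8 of 9 had a negative averaged log2 fold change with c-MSST, and 6 had an unadjusted p under 0.05, all lower. The median of the class was -0.34. Dnah6 (chromosome 6), a heavy chain of the inner arms, ranged from 3.19 to 19.5 CPM in Control with a median of 7.63. It read 2.79, 4.16, 2.40, 2.57 and 1.33 CPM in Control+c-MSST. In SCZ it read 6.08, 8.31, 9.70 and 9.95 CPM, and in SCZ+c-MSST 2.78, 5.28, 1.74 and 4.58 CPM. Every SCZ library was above every SCZ+c-MSST library, while Control replicate 7 overlapped the Control+c-MSST range. The averaged log2 fold change of Dnah6 was -1.46 (SE 0.31, adjusted p = 0.0819). Dnah12 ranged from 0.502 to 5.82 CPM in Control (median 4.34) and read 0.528, 2.11, 1.65, 0.817 and 0.487 CPM in Control+c-MSST. It read 3.14, 4.66, 4.34 and 4.66 CPM in SCZ and 1.63, 3.09, 1.63 and 2.09 CPM in SCZ+c-MSST. Again the MK-801 groups did not overlap and the saline groups did, through Control replicates 3 and 7. Dnah3 gave an averaged log2 fold change of -0.74 (SE 0.17, adjusted p = 0.0819), with means of 6.72 ± 1.91 CPM in Control (SD, n = 6) and 3.41 ± 1.10 in Control+c-MSST (n = 5). Dnah1, the most abundant of the class at 24.5 ± 2.69 CPM in Control, gave -0.28 (SE 0.07, adjusted p = 0.0934). Dnah7b gave -0.31 (SE 0.10) and Dnah7c 0.21 (SE 0.11). These near-identical neighbours on chromosome 1 can trade reads in counting, so their values are uncertain.

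Of the 5 outer arm heavy chains, 4 had a negative averaged value and 2 an unadjusted p under 0.05, both lower. The median was -0.09. Dnah11, which in airway cilia sits in the proximal part of the axoneme, had the smallest averaged p of all tested members. It ranged from 0.776 to 11.9 CPM in Control (median 3.82) and read 0.479, 1.52, 1.44, 0.584 and 0.826 CPM in Control+c-MSST. It read 3.17, 3.37, 4.60 and 5.74 CPM in SCZ and 1.91, 2.10, 1.3 and 1.20 CPM in SCZ+c-MSST. The lowest Control library, replicate 7, lay within the Control+c-MSST range, and the MK-801 groups did not overlap. The log2 fold changes were -2.24 (SE 0.49, adjusted p = 0.0582) with saline, -1.33 (SE 0.54, adjusted p = 0.596) with MK-801 and -1.78 (SE 0.37, adjusted p = 0.0819) averaged. Dnah11 overlaps Cdca7l on the other strand, and no label or note says whether counting took the strand into account. The same limit holds for Dnah3 (Lyrm1) and Spag17 (Wdr3). Of the 66 members with a position, 16 overlap another coding gene on either strand. Dnah9, its partner in the distal part, gave -0.63 (SE 0.26, adjusted p = 0.249). Dnah5, the other outer arm chain of motile cilia, gave -0.09 (SE 0.15), and Dnah17, best known from sperm, 0.23 (SE 0.11, adjusted p = 0.316). The intermediate chains Dnaic1 and Dnaic2 gave -0.16 (SE 0.10) and -0.47 (SE 0.19).

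The central apparatus genes were divided. Of 11, 8 had a negative averaged log2 fold change, 3 with an unadjusted p under 0.05, and 1 was higher at that level. Spag17, a large protein of the central pair projection, gave -0.82 (SE 0.21, adjusted p = 0.0934), with 1.71 ± 0.474 CPM in Control (SD, n = 6) and 0.875 ± 0.269 in Control+c-MSST (n = 5). Cfap46 gave -0.40 (SE 0.10, adjusted p = 0.0906) and Hydin, which builds the C2b projection, -0.41 (SE 0.19, adjusted p = 0.306). Spag6 was the one higher member, at 0.59 (SE 0.24, adjusted p = 0.244). It ranged from 0.584 to 2.30 CPM in Control (median 1.05), read 1.57, 1.69, 1.94, 1.40 and 3.07 CPM in Control+c-MSST, 1.46, 1.82, 0.915 and 0.971 in SCZ and 2.30, 2.03, 1.05 and 1.89 in SCZ+c-MSST, and its groups overlapped in both comparisons. The mouse genome holds a close copy of Spag6, so this value is uncertain. Cfap54, Cfap69 and Cfap74, the most abundant of the class, gave 0.02 (SE 0.07), -0.10 (SE 0.06) and 0.09 (SE 0.06).

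The microtubule inner proteins, which line the inside of the doublets, had the lowest class median, at -0.91. Of 7, 6 were negative and 5 had an unadjusted p under 0.05. Cfap52 gave -1.04 (SE 0.32, adjusted p = 0.141) and Cfap161 -1.39 (SE 0.47, adjusted p = 0.172), both near 1 CPM or below. Cfap20, which is used beyond cilia, stood at 23.8 ± 2.53 CPM in Control (SD, n = 6) and gave 0.02 (SE 0.06), and Cfap45 gave -0.12 (SE 0.13). In the nexin-dynein regulatory complex, Drc1 gave -0.11 (SE 0.08), Drc3 0.08 (SE 0.08) and Drc7 -1.53 (SE 0.45, adjusted p = 0.128). All 4 tested tektins, proteins bundled inside the doublets, had negative values, with Tekt1 at -0.61 (SE 0.27), Tekt2 at -0.26 (SE 0.20) and Tekt5 at -0.01 (SE 0.14). Only 4 of the 9 radial spoke genes were negative, 1 of them with an unadjusted p under 0.05. The median was 0.03 and the lowest value of the class was -1.18. Rsph3a, Rsph3b and Rsph9 gave 0.05 (SE 0.05), 0.03 (SE 0.05) and 0.11 (SE 0.13). Of the 14 other Cfap genes, 11 were negative, 3 of them with an unadjusted p under 0.05, and the median was -0.14. In that class Cfap36 gave -0.10 (SE 0.06), Cfap97 -0.06 (SE 0.06) and Cfap410 0.01 (SE 0.05).

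**Figure D3:**
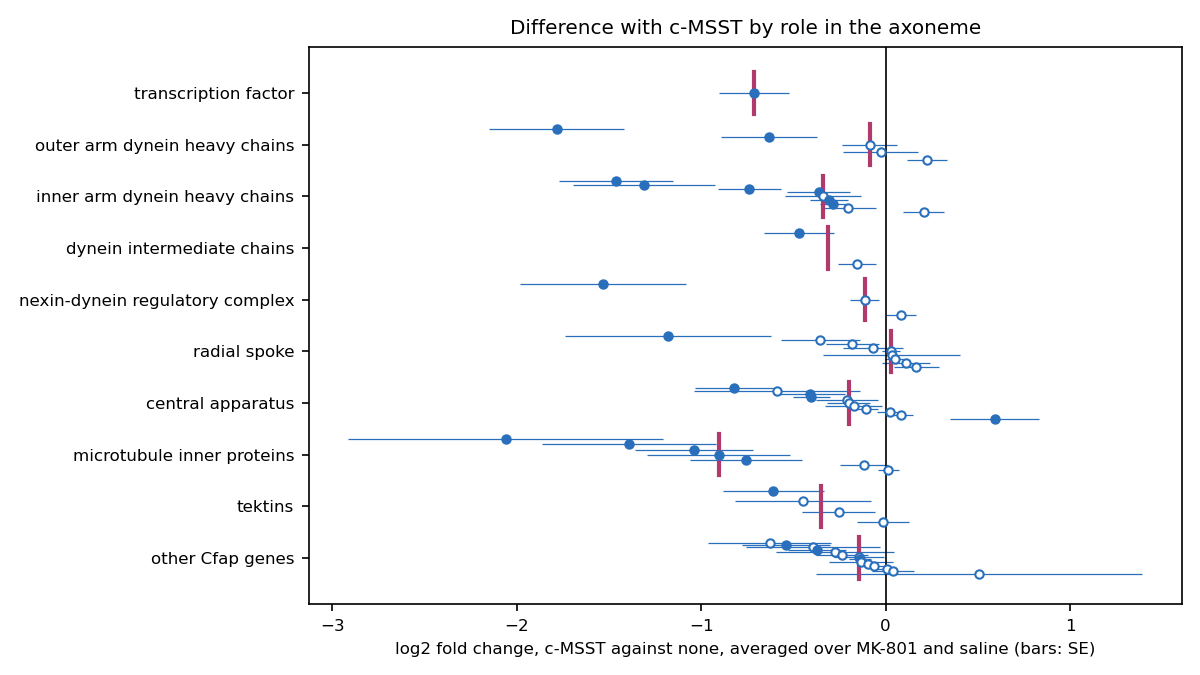
Averaged log2 fold change with c-MSST against none for each tested gene (1 point a gene, bar = SE), by role. Filled points have an unadjusted p under 0.05 and the line is the class median. Class medians run from -0.91 for microtubule inner proteins to 0.03 for radial spoke genes, and no gene has an adjusted p under 0.05.

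Over all 65 tested genes, edgeR called 0 in any comparison. For Control+c-MSST against Control, 17 members had an unadjusted p under 0.05 and were lower (26.2%), against 8.7% of all genes, and 0 were higher, against 7.86%. The 3 smallest p-values on the higher side were those of Spag6, at 0.65 (SE 0.31), Cfap74, at 0.17 (SE 0.08), and Cfap61, at 0.28 (SE 0.16). At an adjusted p under 0.05, 0.329% of all genes were called there (38 higher and 16 lower by edgeR, 241 higher and 9 lower by limma on log2(FPKM + 0.1)). For SCZ+c-MSST against SCZ, 6 members were lower (9.23%) against 3.7% of all genes, and 0 were higher against 3.86%, with 0% of all genes called. Averaged over saline and MK-801, 24 were lower (36.9%) against 7.95%, and 1 was higher against 7.89%, with 0.0122% of all genes called. The median log2 fold change of the members was -0.27, -0.21 and -0.21 in these 3 comparisons. The averaged median of all genes was -0.01. The first and second comparisons share no library, and the third is built from both. In SCZ+c-MSST every library was below every SCZ library for 11 members, against 6.09% of all genes: Foxj1, Dnah1, Dnah6, Dnah11, Dnah12, Cfap46, Cfap52, Cfap161, Drc1, Drc7 and Rsph14. In Control+c-MSST this held for 2 members, Cfap298 and Dnaic1, against 1.3% of all genes.

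The calls depended on the test and on 1 library. DESeq2 called 7 members in Control+c-MSST against Control, all lower: Dnah11, Dnah6, Dnah3, Foxj1, Drc7, Dnah12 and Spag17, among 3.48% of all genes. For the averaged comparison it called 10, all lower, among 2.79% of all genes. Limma voom with quality weights called 6 in the averaged comparison, among 1.72% of all genes. Without Control replicate 7, edgeR called 5 members (Dnah11, Dnah6, Dnah3, Dnah12 and Foxj1) in Control+c-MSST against Control, among 1.92% of all genes, and 7 in the averaged comparison, among 1.36%. Foxj1 then gave -1.07 (adjusted p = 0.0318) and -0.77 (adjusted p = 0.0451). The labels do not set Control replicate 7 apart, but its marker sums do. Its ependyma marker sum (54.8 CPM) was the lowest of the 19 libraries. Its cortical excitatory neuron sum (2040 CPM) was the highest in Control, where the median was 1667 CPM. The part of this tissue makeup in the calls was not tested.

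Marker genes of the ventricle wall and its neighbours had differences of the same sign. All 15 ependyma markers outside the 68 genes had negative averaged log2 fold changes, 8 with an unadjusted p under 0.05, with a median of -0.77 and none called. Their summed level had medians of 74.0 CPM in Control (54.8 to 89.6), 56.9 in Control+c-MSST (55.2 to 67.5), 74.1 in SCZ (67.3 to 90.9) and 62.4 in SCZ+c-MSST (58.9 to 64.7). That sum is mostly Vim and Tppp3, which other brain cells also express. All 14 choroid plexus markers were negative as well (median -2.02, 10 with an unadjusted p under 0.05). Their sums ran from 13.2 to 1942 CPM in Control, 13.1 to 20.8 in Control+c-MSST, 27.7 to 43.9 in SCZ and 15.4 to 24.1 in SCZ+c-MSST. The 7 septal markers were negative too (median -0.67, 4 with an unadjusted p under 0.05), with summed medians of 51.9, 32.5, 81.2 and 30.2 CPM in Control, Control+c-MSST, SCZ and SCZ+c-MSST. The 5 oligodendrocyte markers had a median of -0.42, 12 striatal markers -0.20 and 8 neuroblast markers -0.39. Of these, 5, 0 and 4 were lower at an unadjusted p under 0.05, so lower markers were not limited to the ventricle wall. In contrast, 6 of 7 cortical excitatory neuron markers were positive, 3 at that level, with a median of 0.16. No marker named here passed an adjusted p of 0.05. The part of tissue makeup in the values of the motile cilia genes was not tested.

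Across the 19 libraries, Foxj1 and the choroid plexus sum, both as log2 CPM, had Pearson's r = 0.477 (permutation p = 0.0522, adjusted p = 0.0783 over 3 relations) and Spearman's rho = 0.558 (permutation p = 0.0148, adjusted p = 0.0443). Without Control replicates 2 and 3, the 2 libraries farthest out, r was 0.591 (permutation p = 0.0106). Within the 10 libraries without c-MSST r was 0.360 (permutation p = 0.306) and within the 9 with it 0.246 (exact permutation p = 0.572), so the relation did not pass within either. With the septal sum, r was 0.621 over all 19 libraries (permutation p = 0.00339, adjusted p = 0.0102) and rho 0.451 (permutation p = 0.0547, adjusted p = 0.0821), and without SCZ replicates 3 and 5, the 2 farthest out, r was 0.640 (permutation p = 0.00446). It was 0.559 (permutation p = 0.0978) within the 10 libraries without c-MSST and -0.122 (exact permutation p = 0.763) within the 9 with it. These values join clusters, since septal sums fell into 2 of them, 6 libraries of 65.9 to 101 CPM (Control replicates 2, 4 and 5, SCZ replicates 2, 3 and 5) and 13 of 25.3 to 38.0 CPM. Foxj1 read 5.73 to 9.58 CPM in the 6 and 1.55 to 5.92 CPM in the 13, so the positive r over all libraries lies between the clusters. Within the 6, a split made after the data were seen, r was -0.847 (exact permutation p = 0.0306) and rho -0.943, and within the 13, r was -0.191 (permutation p = 0.558). In the 6, the Control libraries had the lower septal sums (65.9 to 75.4 CPM) and the SCZ libraries the higher (79.7 to 101 CPM). Foxj1 read 7.23 to 9.58 CPM in those Control libraries and 5.73 to 6.52 CPM in those SCZ libraries. The permutation did not keep groups apart, so the r within the 6 cannot be told apart from a difference between saline and MK-801. With the striatal sum, r was 0.337 (permutation p = 0.160, adjusted p = 0.160) and rho 0.377. Without Control replicates 2 and 3, r with the striatal sum was 0.662 (permutation p = 0.00339). Within the 10 libraries without c-MSST it was 0.282 (permutation p = 0.433), and within the 9 with it 0.635 (exact permutation p = 0.0506). Only these 3 sums were set against Foxj1, so other markers may follow it as closely or more so. The oligodendrocyte sum was lowest in Control+c-MSST replicate 6 (844 CPM) and highest in Control replicate 2 (3792 CPM). Foxj1 was lowest and highest in the same libraries (1.55 and 9.58 CPM), and that relation was not tested.

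**Figure D4:**
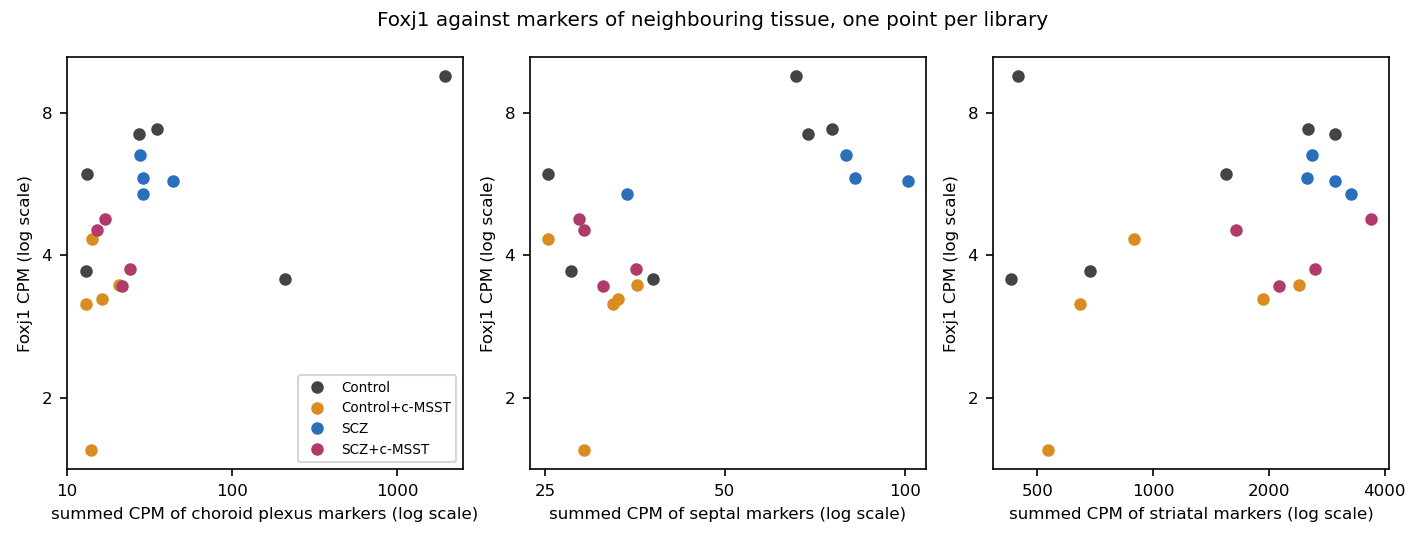
Foxj1 CPM against the summed CPM of choroid plexus, septal and striatal markers in the 19 libraries, on log axes, with colour by group. Control replicates 2 and 3 stand far to the right on the choroid plexus axis, and the septal axis shows the 6 libraries above 50 CPM apart from the other 13.

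In Control replicates 2 and 3, some members were high beside the choroid plexus markers. Dnah9 read 67.3 and 41.9 CPM there, and between 11.1 and 19.1 CPM in all other libraries. Drc7 read 9.91 CPM in Control replicate 2 and 1.77 in replicate 3, and at most 2.86 elsewhere. Foxj1 was not set apart in the same way, with 9.58 CPM in Control replicate 2 and 3.56, the lowest Control value, in replicate 3. Without these 2 libraries, Control+c-MSST against Control gave -0.13 (SE 0.12) for Dnah9 in place of -0.95, -0.86 (SE 0.39) for Drc7 in place of -2.05, and -1.66 (SE 0.42) for Dnah11 in place of -2.24. Foxj1 gave -0.93 (SE 0.23, adjusted p = 0.107), close to its value in all libraries, Dnah6 -1.40 (SE 0.37) and Dnah12 -1.72 (SE 0.53). The averaged median of all members was then -0.18, with 17 lower and 2 higher at an unadjusted p under 0.05, and 0 called. The share of all genes at that level without these 2 libraries is not given here, so the 17 and 2 have no background beside them.

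**Figure D5:**
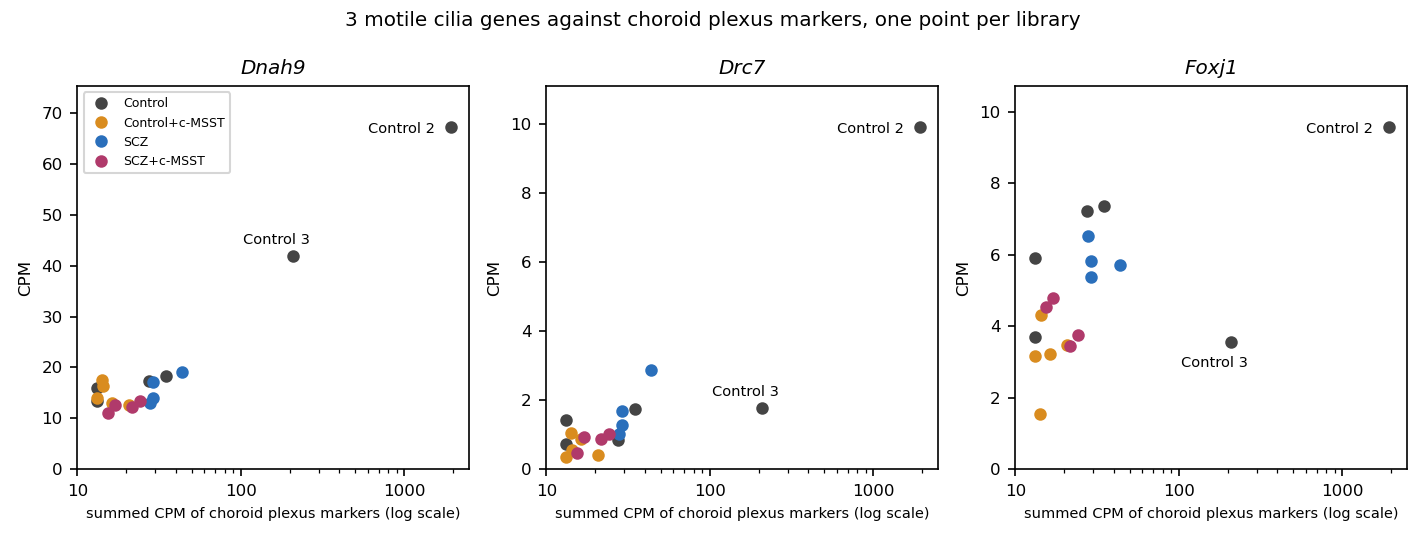
CPM of Dnah9, Drc7 and Foxj1 against the summed CPM of the 14 choroid plexus markers in each library, with a log scale for the marker sum and colour by group. Dnah9 is highest in the 2 libraries with the highest choroid plexus sums (67.3 and 41.9 CPM), Drc7 in 1 of them (9.91 CPM), and Foxj1 spans 3.56 to 9.58 CPM between the 2.

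The second question was whether MK-801 went with another level of these genes. In SCZ against Control, 0 members were called, with 0% of all genes called. At an unadjusted p under 0.05, 2 members were lower, against 7.43% of all genes, and 1 was higher, against 6.09%, with a median of -0.01. The lower members were Dnah9, at -0.90 (SE 0.37, adjusted p = 0.293), and Cfap100, at -0.59 (SE 0.24, adjusted p = 0.293). Markers of other cell types also differed in this comparison, with none called. All 14 choroid plexus markers had negative values (median -2.13, 7 with an unadjusted p under 0.05), and all 12 striatal markers had positive ones (median 1.18, 2 with an unadjusted p under 0.05). Of 8 neuroblast markers 7 were positive (median 0.56, 5 with an unadjusted p under 0.05), and all 7 cortical excitatory neuron markers were negative (median -0.25). The 15 ependyma markers had a median of 0.08, with 6 negative and none with an unadjusted p under 0.05. The part of these in the values of the motile cilia genes was not tested. Without Control replicates 2 and 3, Dnah9 gave -0.08 (SE 0.13) and Cfap100 -0.37 (SE 0.24). The higher member was Tekt5, at 0.41 (SE 0.19, adjusted p = 0.365). The next smallest p-values were those of Cfap221, a central apparatus gene, at 1.25 (SE 0.60), and Rsph14 at 1.43 (SE 0.73) on the higher side, and Cfap58 at -1.94 (SE 1.32) on the lower side, with all 3 below 1 CPM. Foxj1 gave -0.11 (SE 0.26, adjusted p = 0.898), with means of 6.23 ± 2.33 CPM in Control (SD, n = 6) and 5.86 ± 0.480 in SCZ (n = 4).

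With c-MSST in both arms, SCZ+c-MSST against Control+c-MSST called 0 members and 0% of all genes. At an unadjusted p under 0.05, 0 members were lower, against 5.51% of all genes, and 2 were higher, against 5.46%. These were Cfap47, at 0.52 (SE 0.22, adjusted p = 0.409), and Dnaic1, at 0.31 (SE 0.15, adjusted p = 0.451). Dnaic2 followed at 0.51 (SE 0.27), and the smallest p-values on the lower side were those of Cfap45, at -0.36 (SE 0.19), Dnah5, at -0.36 (SE 0.22), and Drc3, at -0.20 (SE 0.12). Foxj1 gave 0.38 (SE 0.27, adjusted p = 0.637). All 12 striatal markers were again positive (median 1.116), and 6 of 14 choroid plexus markers were negative (median 0.10). The interaction, which tests whether the c-MSST difference was another with MK-801 than with saline, called 0 members and 0% of all genes. Its smallest p among the members was that of Dnaic1, at 0.49 (SE 0.20, adjusted p = 0.641). Cfap299 gave 1.09 (SE 0.73), Tekt2 -0.70 (SE 0.40) and Cfap410 -0.14 (SE 0.10). For Foxj1 it was 0.50 (SE 0.38, adjusted p = 0.80), so the smaller difference of Foxj1 with MK-801 was not told apart from that with saline.

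The other genes of the pathway are given for the averaged c-MSST comparison, in which none was called and 7.95% of all genes were lower and 7.89% higher at an unadjusted p under 0.05. Of 40 tested genes of the axoneme outside the 68, 33 were negative, 15 of them with an unadjusted p under 0.05 and 1 positive at that level, with a median of -0.36. The 3 most abundant of these, Tctn1, Wdr78 and Wdr66, gave -0.03 (SE 0.05), 0.01 (SE 0.08) and 0.30 (SE 0.13). Of 19 proteins that assemble, dock or space the dynein arms, 15 were negative, 4 were lower and 1 higher at an unadjusted p under 0.05, and the median was -0.15, with Dnal1 at 0.09 (SE 0.16), Ccdc39 at -0.10 (SE 0.06) and Spag1 at -0.10 (SE 0.07). Of 15 regulators of multiciliated cells, 10 were negative, none had an unadjusted p under 0.05, and the median was -0.03. The RFX factors Rfx3 and Rfx1 gave 0.01 (SE 0.10) and -0.03 (SE 0.04), and E2f4 0.05 (SE 0.07). Of 28 genes of intraflagellar transport, which primary cilia of neurons and glia also use, 19 were negative, 3 were lower and 3 higher at an unadjusted p under 0.05, and the median was -0.03. Among these, Kifap3, Kif3a and Dync2h1 gave 0.09 (SE 0.03), -0.05 (SE 0.05) and -0.08 (SE 0.03).

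The label of these genes as ependymal could be held against how closely each followed Foxj1. Over the 19 libraries, the rank correlation of log2 CPM with Foxj1 was highest for Dnah12 (Spearman's rho = 0.893), Dnah6 (0.847), Dnah3 (0.784), Cfap161 (0.761) and Dnah11 (0.758). It was lowest for Dnah17 (-0.546), Rsph3a (-0.444), Cfap58 (-0.410), Dnah7c (-0.398) and Spag6 (-0.374). Dnah7a and Dnah7b, the copies of Dnah7c, stood at 0.533 and 0.495. Among the 58 members of at least 0.5 CPM, the median rho was 0.389, and 17 (29.3%) were above 0.5. Among 14826 genes at that level the median was 0.00877 and 6.29% were above 0.5. Outside the 68 genes, the highest rho values were those of Ssbp1 (0.890), Parp4 (0.875), Tmem212 (0.872), Ankub1 (0.868), Ccdc180 (0.863), Hhip (0.861), Ak7 (0.858), Rgs22 (0.854) and S1pr5 (0.844). Clic4 (0.840), Eppk1 (0.840), Car2 (0.839), Anln (0.835), Spata18 (0.834) and Stxbp3 (0.832) came next. Tmem212 and Ak7 are on the ependyma marker list, and Ak7 and Spata18 on the list of other axoneme genes. The other genes named here are on none of the marker or pathway lists. Those lists are short, so absence from them does not tell which cells express a gene. These correlations describe libraries that differ in group and in tissue makeup, and the genes share each library's depth. A rule by gene names thus gathered genes that varied with Foxj1 together with genes such as Cfap20 (-0.091), Rsph3a and Dnah17, and the cell type that made the RNA was not measured.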

How the data were processed

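RNA from 19 libraries was measured by Illumina sequencing from a stranded total RNA kit, per the labels' protocols. The submitters' processing notes name fastp 0.19.5, STAR 2.7.7a, Picard 2.18.29, StringTie 1.3.5 and the mm10 genome, with no role or order. The authors deposited a table of expected counts per gene, some of them not whole, and a table of FPKM values. All counts were whole numbers as deposited. The deposited FPKM values, made by the authors, were used as log2(FPKM + 0.1) and log2(FPKM + 1) in limma 3.58.1 as alternatives, and 11 gene names of the count table were not found among them.

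All 4 groups entered 1 edgeR 4.0.16 quasi-likelihood model (TMM scaling, filterByExpr, R 4.3.3), with p-values adjusted by Benjamini-Hochberg over 16417 genes and a threshold of 0.05. The c-MSST difference was also averaged over saline and MK-801. The test was checked on simulated counts. Alternatives included DESeq2 1.42.0, other filters and scalings, a replicate block, and each library left out. Permutation tests drew 100000 orders, two-sided. All columns of both tables were mapped to samples.

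The members, role classes, marker lists and pathway lists were chosen with earlier results of these data known. Named members were those given by name, the 3 most abundant of each role class, the 3 smallest p-values in each direction of each comparison and the 5 highest and lowest rank correlations with Foxj1. Of the pathway lists the 3 most abundant genes were named, and outside the lists the genes ranked most like Foxj1. Gene positions are from GENCODE M21 (GRCm38).

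Replicate numbers recur across groups with no stated meaning. Same-numbered libraries correlated in their deviations from the group mean by -0.0958 to 0.139, so they were not taken as pairs.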

Additional observations from a re-analysis of the deposited data

Results flagged for a closer look

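In 192 groups of 4 to 6 libraries, 15 held a library whose gap to the nearest other exceeded Dixon's 95% critical value for the group's range, and chance alone gives about 1 in 20, or 9.6. Control replicate 2 was set apart for Dnah11 (11.9 CPM, nearest 4.72), Drc7 (9.91 CPM, nearest 1.77), Cfap221 (0.718 CPM, nearest 0.289) and the choroid plexus marker sum (1942 CPM, nearest 208). SCZ replicate 5 was set apart for the choroid plexus sum (43.9 CPM, nearest 29.1). SCZ replicate 2 was set apart for Cfap410 (23.2 CPM) and for Tekt3 (0.122 CPM, with 0 in the other 3 libraries of its group). In Control, Cfap54 was high in replicate 1 (35.8 CPM, nearest 29.3) and Cfap74 low in replicate 3 (19.8 CPM, nearest 26.3). In Control+c-MSST, Dnah7c was high in replicate 6 (15.1 CPM, nearest 11.1), Spag17 high in replicate 2 (1.34 CPM, nearest 0.826) and Rsph3b low in replicate 2 (13.0 CPM, nearest 14.2). In SCZ+c-MSST, Cfap100 was low in replicate 4 (2.42 CPM, nearest 3.84), Cfap221 high in replicate 3 (0.831 CPM, nearest 0.180) and Rsph3a high in replicate 2 (19.2 CPM, nearest 15.9). No interaction of MK-801 and c-MSST passed the adjusted threshold for a member.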

How the results depend on the processing

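Over the alternatives, 859 values kept their direction and side of the threshold (or, with no test, moved little), 81 moved, 19 passed the threshold newly, 1 no longer passed it and 3 reversed, all 3 of Foxj1 against septal markers. Members called stayed at 0 except with DESeq2 (7 for Control+c-MSST against Control, 10 averaged), a mean of at least 1 CPM (1, Dnah11, the first comparison), voom with quality weights (6 averaged), and leaving out 1 library (0 to 5 and 0 to 7). All genes called for SCZ against Control were 238 with DESeq2, 2 with voom, and 1 each with upper-quartile scaling, only the groups compared and both FPKM fits. For Control+c-MSST against Control they were 571 with DESeq2, 0 with the replicate block, 0 with only those groups, 250 and 259 on FPKM, 25 with voom and 16 without Control replicates 2 and 3. For SCZ+c-MSST against SCZ they were 62, 31 with only those groups, 2 and 2 on FPKM and 46 with voom. For SCZ+c-MSST against Control+c-MSST they were 73 with DESeq2, 40 with voom and 1 without Control replicates 2 and 3. Averaged they were 458 with DESeq2, 0 with the replicate block, 0 and 0 on FPKM and 283 with voom, and for the interaction 40 with DESeq2 and 1 without Control replicates 2 and 3. Leaving out 1 library gave 0 to 94, 0 to 314, 0 to 2, 0 to 1, 0 to 223 and 0 to 1 in these 6 comparisons. The cause was not tested. With the replicate block, 11 members were lower for Control+c-MSST against Control and 18 averaged at an unadjusted p under 0.05, with 0 called. The share of all genes lower under that model is not given here, so the 11 and 18 have no background beside them. The members' median stayed negative in all alternatives of the averaged comparison (-0.28 to -0.06), of Control+c-MSST against Control (-0.34 to -0.05) and of SCZ+c-MSST against SCZ (-0.29 to -0.08). On log2(FPKM + 0.1) 33.4% of all genes were negative for Control+c-MSST against Control (52.9% in edgeR), and the interaction's median over all genes was -0.13. Foxj1 against choroid plexus markers gave r = 0.591 without the 2 farthest libraries and 0.535 on FPKM, against striatal markers 0.662 without them. Against septal markers r was 0.621 over all libraries, 0.640 without the 2 farthest and 0.625 on FPKM, 0.559 without c-MSST and -0.122 with it. Above 50 CPM (chosen after seeing the data) it was -0.847, where every Control septal sum lay below every SCZ sum, and below 50 CPM -0.191. Low counts limit the precision of genes near 0.1 CPM such as Cfap77 and Rsph14.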
